A study of Mus musculus with 14 samples.

Results

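The transporters that move bile acids and sterols across the membranes of hepatocytes and ileal enterocytes were analyzed in mouse induced hepatic stem cells, in organoids and assembloids made from them, and in liver. The members are 10 genes taken by name from a table of 28022 genes, and all 10 were found. By their textbook sites of action, 3 were treated as hepatocyte-type (*Slc10a1*, *Abcb11* and *Abcc2*), 4 as ileal-type (*Slc10a2*, *Slc51a*, *Slc51b* and *Slco1a5*) and 3 as shared by liver and gut (*Abcc3*, *Abcg5* and *Abcg8*).

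RNA-seq read counts came from 14 libraries of 7 conditions, with 2 libraries per condition, and the labels give the strain C57BL/6J for each of them. Fibroblasts (label Fib) were mouse embryonic fibroblasts, and 2D-iHs (label 2D-iHepSC) were induced hepatic stem cells converted from such fibroblasts with lentiviral *Oct4* and *Hnf4α* and grown as a monolayer. 2D-iHEs (label 2D-iHepSCiEC) were the same cells co-cultured with induced endothelial cells, which were made with *ETV2* from the human fibroblast line HF1, so that only reads assigned to mouse genes were counted in a mixture of mouse and human cells. iHLOs (label 3D-iHA) were organoids of induced hepatic stem cells alone in a hydrogel of collagen and Matrigel, and iHEAs (label 3D-iHEA) were assembloids in which the hydrogel also held induced endothelial cells. Adult liver was collected from mice at 6 weeks of age and fetal liver from mid-gestation embryos. Since the 8 culture libraries all came from cells carrying the *Oct4* and *Hnf4α* vectors, and since nothing states that the libraries of a condition were separate cultures or animals, p-values measure only the spread between these libraries.

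Bile acids circulate between liver and intestine. Hepatocytes take them up from portal blood through the sodium-dependent carrier *Slc10a1* (NTCP) and pump them into bile through *Abcb11* (BSEP), while *Abcc2* (MRP2) exports conjugated organic anions at the same canalicular membrane. Ileal enterocytes recover bile acids from the lumen through the related sodium-dependent carrier *Slc10a2* (ASBT), which cholangiocytes also use, and release them through the heterodimer of *Slc51a* and *Slc51b* (OSTα and OSTβ). *Abcc3* (MRP3) is a basolateral exporter of both organs, *Slco1a5* (OATP3) an organic anion uptake carrier described in rodent intestine, and *Abcg5* with *Abcg8* (sterolin) the obligate heterodimer that exports sterols into bile and into the gut lumen.

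The genes of the sterol exporter lie head to head on chromosome 17, and their shared stretch is shown because both changed together below. In the GENCODE annotation of GRCm38, *Abcg5* spans chr17:84658234-84683011 on the minus strand and *Abcg8* chr17:84676302-84700333 on the plus strand, and 82 exonic bases are annotated to both. The RefSeq promoter table (GRCm38.p6) places 109 bases between the start of *Abcg5* and the downstream start of *Abcg8*, chr17:84683012-84683120, read here on the plus strand with copies of a GATA-type motif (AGATAA, which reads TTATCT on the opposite strand) in capitals.
*Abcg5* to *Abcg8*: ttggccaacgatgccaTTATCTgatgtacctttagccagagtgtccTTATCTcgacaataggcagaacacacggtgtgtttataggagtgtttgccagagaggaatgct
The stretch holds 2 copies. The sodium-dependent carriers of ileum and hepatocyte are shown next because they are the pair of related uptake carriers with unlike levels in 3D cultures and liver, each as the 250 bases before its RefSeq start on the minus strand. Capitals mark any copy, on either strand, of the GATA-type motif or of another 2 motifs. These are TTTATG, which is of the CDX type, and AGGTCA, which is of the nuclear receptor type. For *Slc10a2* this is chr8:5105288-5105537, and for *Slc10a1* chr12:80968706-80968955.
*Slc10a2*: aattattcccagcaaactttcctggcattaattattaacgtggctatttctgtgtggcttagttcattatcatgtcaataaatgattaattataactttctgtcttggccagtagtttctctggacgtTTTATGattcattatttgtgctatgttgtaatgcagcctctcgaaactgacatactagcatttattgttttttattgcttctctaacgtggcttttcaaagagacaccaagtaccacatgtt
*Slc10a1*: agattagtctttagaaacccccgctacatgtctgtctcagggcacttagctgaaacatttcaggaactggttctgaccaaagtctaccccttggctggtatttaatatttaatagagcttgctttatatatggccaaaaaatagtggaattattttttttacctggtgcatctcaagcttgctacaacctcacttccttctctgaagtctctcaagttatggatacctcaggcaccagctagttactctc
The *Slc10a2* stretch holds 1 CDX-type motif, and none of the 3 motifs was found in that of *Slc10a1*. Windows of 300 bases were given for 9 of the 10 members, and the GATA-type motif was in 2 of them against 11.2% of all 32851 windows, the CDX-type motif in 2 against 11.9% and the nuclear receptor-type motif in 4 against 16.3%. The 2 windows with the GATA-type motif are those of *Abcg5* and *Abcg8*, which overlap in the stretch shown above, so the same copies are counted in both. These matches describe letters and no binding.

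Total counts ranged from 20851489 to 35143325 per library. The libraries of iHEA and of fetal liver differed more from each other (chi-square of 11.5 and 13.4 per gene) than those of the other conditions (3.05 to 3.67), and 1 iHEA library has no number because the numbers in its column name conflict. Levels are given as CPM, read counts relative to the total of the library, after scaling by the trimmed mean of M values (TMM), as the mean ± SD with n = 2 unless stated, and 3 counts or fewer in every library of a group is called the floor, equal to 0.0866 to 0.200 CPM on average over a condition's or group's libraries. CPM after TMM were 2.28 and 2.33 times CPM from total counts in the adult liver libraries and 0.833 to 0.902 times in all others, so the place of adult liver relative to the other conditions depends on the scaling, and values from total counts are given beside the results of the transporters that turn on it. Of 10 hepatocyte markers, 7 were above the floor in 2D-iHs and in iHLOs, 5 in iHEAs and 2 in 2D-iHEs, but only 4 in 2D-iHs without library 1 and 4 in iHLOs without library 2. *Apoa1*, an apolipoprotein also made by enterocytes, gave 70.6% to 99.4% of their summed level in the culture conditions, and the sum of 281 to 391 CPM in the culture libraries compares with 571737 to 610205 CPM in adult liver, where *Alb* gave 90.2%. *Serpina1a* was at the floor in every culture condition.

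Across the 7 conditions, the hepatocyte-type transporters were at high levels in adult liver and near the floor in the cultures, except *Abcc2*, whereas *Slc10a2*, *Abcg5* and *Abcg8* were raised in 3D cultures and *Abcc3* was high in every culture. The plot of each transporter in every library shows these patterns.

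**Figure D1:**
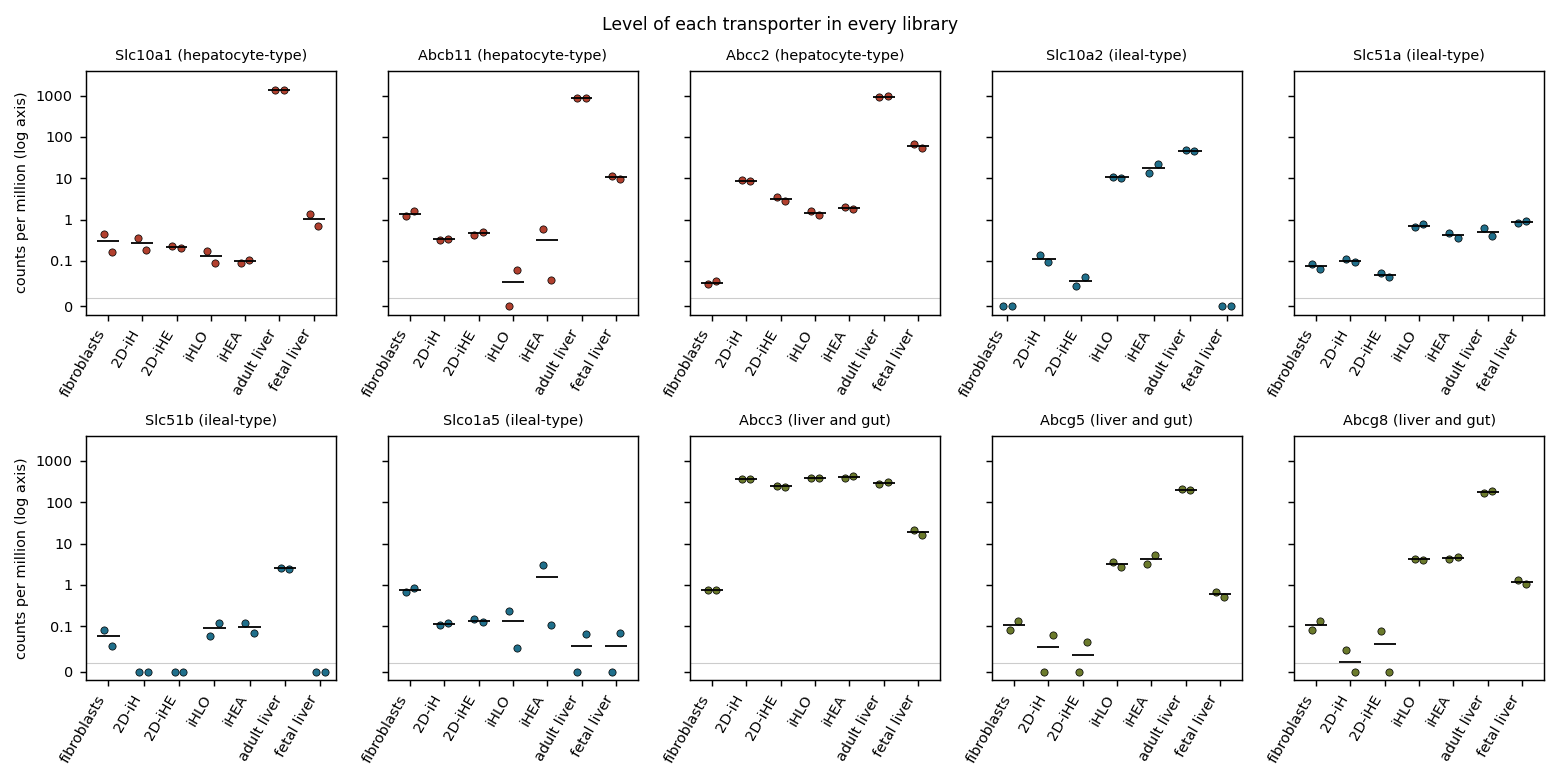
Each panel plots 1 transporter: the y axis is the level in CPM on a log axis with libraries without a count placed at 0, points are single libraries and black lines are means of 2 libraries per condition. *Abcc3* lies between 237 and 432 CPM in all 8 culture libraries, while *Slc10a2* reaches at most 0.136 CPM in a 2D library and at least 10.3 CPM in a 3D library.

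Among the hepatocyte-type transporters, *Slc10a1* (chr12:80953183-80968705) was counted 20383 and 20697 times in the adult liver libraries and 46 and 21 times in fetal liver. Fibroblasts gave 16 and 5 counts, 2D-iHs 13 and 6, 2D-iHEs 9 and 5, iHLOs 6 and 3, and the iHEA libraries 3 each. The level was 1368 ± 25.7 CPM in adult liver, 1.05 ± 0.489 CPM in fetal liver and 0.0970 to 0.300 CPM on average in the other conditions, so the culture levels did not exceed those of the fibroblasts. Libraries of fibroblasts and 2D-iHs overlapped, as did those of 2D-iHs and 2D-iHEs and those of iHLOs and iHEAs. In bulk samples, fewer cells that express a gene and less RNA per cell cannot be told apart.

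*Abcb11* (chr2:69238282-69342616, with 155 exonic bases annotated also to *Gm13613* and *Gm13614*), the canalicular bile salt pump, was counted 12643 and 13341 times in adult liver, 376 and 281 times in fetal liver and 44 and 48 times in fibroblasts. In 2D it was counted 12 and 11 times without and 17 and 12 times with endothelial cells. In 3D, counts were 0 and 2 in iHLOs, and 20 in iHEA library 1 against 1 in the unnumbered iHEA library. The order of its levels was adult liver (865 ± 7.28 CPM), fetal liver (10.4 ± 1.41 CPM), fibroblasts (1.38 ± 0.260 CPM) and then the 4 cultures, of which iHEAs, with 20 counts in 1 library and 1 in the other, overlapped 2D-iHEs, 2D-iHs and iHLOs.

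*Abcc2* (chr19:43782192-43840740), the canalicular organic anion pump, was the hepatocyte-type transporter with counts well above the floor in the cultures. It was counted once in each fibroblast library, 326 and 276 times in 2D-iHs, 142 and 70 times in 2D-iHEs, 55 and 43 times in iHLOs, 69 and 52 times in iHEAs, 13287 and 14721 times in adult liver and 2203 and 1638 times in fetal liver. No neighbouring conditions overlapped in its order, which ran from adult liver (932 ± 39.9 CPM) and fetal liver (60.9 ± 8.45 CPM) to 2D-iHs (8.65 ± 0.320 CPM), 2D-iHEs (3.22 ± 0.472 CPM), iHEAs (1.93 ± 0.153 CPM), iHLOs (1.47 ± 0.229 CPM) and fibroblasts (0.0299 ± 0.00381 CPM). 2D-iH library 1 also held 210 *Alb* counts against 9 in library 2. The source of these *Alb* counts and their part in the *Abcc2* counts were not tested.

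Among the ileal-type transporters, *Slc10a2* (chr8:5083219-5105351) was counted 363 and 337 times in iHLOs, 447 times in iHEA library 1 and 629 times in the unnumbered iHEA library. It was counted 5 and 3 times in 2D-iHs, once in each 2D-iHE library and never in fibroblasts or fetal liver, while adult liver gave 689 and 705 counts. Its mean level was 46.4 ± 0.619 CPM in adult liver, 17.6 ± 6.26 CPM in iHEAs and 10.5 ± 0.370 CPM in iHLOs, and libraries of these conditions did not overlap. This order did not hold with total counts, where CPM were 20.1 ± 0.0398 in adult liver and 21.05 ± 7.69 in iHEAs, which overlapped, and 12.3 ± 0.390 in iHLOs. A count of 0 against this depth allows up to the floor in each of those libraries, and the floor covers counting error only.

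The organic solute transporter subunits were low throughout. *Slc51a* (chr16:32474504-32487879) was counted 22 and 25 times in iHLOs, 16 and 10 times in iHEAs, 4 and 3 times in 2D-iHs, 2 and 1 times in 2D-iHEs, 9 and 6 times in adult liver, 27 times in each fetal liver library, and 3 and 2 times in fibroblasts. Fetal liver was thus highest (0.863 ± 0.0606 CPM), followed by iHLOs (0.707 ± 0.0761 CPM), and adult liver overlapped iHEAs, although with total counts it lay below them (0.217 ± 0.0643 against 0.490 ± 0.0974 CPM). *Slc51a* shares 567 exonic bases with the overlapping gene *Pcyt1a*, so its counts are uncertain. *Slc51b* (chr9:65412714-65422955, 91 exonic bases annotated also to *Rasl12*) was counted 37 and 38 times in adult liver, 2 and 4 times in iHLOs, 4 and 2 times in iHEAs, 3 and 1 times in fibroblasts, and never in 2D cultures or fetal liver.

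*Slco1a5* (chr6:142234227-142322981) stood apart because its level in 3D came from a single library. It was counted 103 times in iHEA library 1 and 3 times in the unnumbered iHEA library, 8 and 1 times in iHLOs, 4 times in each 2D-iH library, 6 and 3 times in 2D-iHEs, and 25 and 26 times in fibroblasts. Adult liver gave 0 and 1 counts and fetal liver 0 and 2. The treatment of reads that fit several genes of this carrier family is not given in the sources used here, so its counts are uncertain.

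Among the transporters of liver and gut, *Abcc3* (chr11:94343295-94392997), the basolateral exporter, was counted 28 and 23 times in fibroblasts and 13062 and 11745 times in 2D-iHs. Counts were 9859 and 5754 in 2D-iHEs, 13237 and 12719 in iHLOs, 12994 and 12321 in iHEAs, 4087 and 4677 in adult liver, and 706 and 481 in fetal liver. The mean level was 408 ± 33.9 CPM in iHEAs, which overlapped iHLOs at 390 ± 4.22 CPM, and then 357 ± 2.00 CPM in 2D-iHs, 291 ± 19.2 CPM in adult liver, 242 ± 6.73 CPM in 2D-iHEs, 18.8 ± 3.75 CPM in fetal liver and 0.757 ± 0.00874 CPM in fibroblasts. Apart from iHEAs and iHLOs, no neighbours in this order overlapped. With total counts, adult liver fell below 2D-iHEs, at 126 ± 10.2 CPM against 278 ± 3.24 CPM.

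The sterolin subunits moved side by side. *Abcg5* was counted 118 and 91 times in iHLOs, 107 and 153 times in iHEAs, 3022 and 2972 times in adult liver, 22 and 15 times in fetal liver, 0 and 2 times in 2D-iHs, 0 and 1 times in 2D-iHEs and 3 and 4 times in fibroblasts. *Abcg8* was counted 141 and 134 times in iHLOs, 146 and 137 times in iHEAs, 2505 and 2793 times in adult liver, 43 and 31 times in fetal liver, 1 and 0 times in 2D-iHs, 3 and 0 times in 2D-iHEs and 3 and 4 times in fibroblasts. For both genes, adult liver came first, 3D cultures next and fetal liver after them without overlap, and *Abcg5* overlapped between iHEAs and iHLOs.

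To compare levels between genes, CPM were divided by the length of the annotated exons. In adult liver, *Slc10a1* reached 622 ± 11.7 CPM per kilobase, *Abcb11* 168 ± 1.42, *Abcc2* 109 ± 4.68 and *Slc10a2* 11.2 ± 0.149 on the same scale. In iHEAs, *Abcc3* reached 71.6 ± 5.95 CPM per kilobase, *Slc10a2* 4.25 ± 1.51, *Abcg5* 1.57 ± 0.574, *Abcg8* 1.22 ± 0.0921 and *Abcc2* 0.226 ± 0.0179. *Abcc3* made up 89.3% to 98.6% of the summed length-scaled level of the 10 transporters in the culture libraries, compared with 4.48% and 4.94% in adult liver and 23.2% and 24.6% in fetal liver.

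The summed level of the hepatocyte-type transporters was 899 ± 5.57 CPM per kilobase in adult liver and 9.64 ± 1.49 in fetal liver. It was 0.409 ± 0.0368 CPM per kilobase in fibroblasts, with a mean above those of both 3D cultures, 1.20 ± 0.0912 in 2D-iHs, 0.565 ± 0.0520 in 2D-iHEs, 0.240 ± 0.0465 in iHLOs and 0.331 ± 0.0891 in iHEAs, and *Abcc2* gave 60.6% to 86.9% of it in the culture libraries. The sum of the ileal-type transporters was 0.309 ± 0.0208 CPM per kilobase in fibroblasts, above both 2D cultures, 0.0898 ± 0.00892 in 2D-iHs, 0.0591 ± 0.00422 in 2D-iHEs, 2.92 ± 0.0424 in iHLOs, 4.93 ± 0.873 in iHEAs, 14.9 ± 0.223 in adult liver and 0.279 ± 0.0317 in fetal liver. *Slc10a2* gave 73.8% to 95.7% of this sum in the libraries of 3D cultures, compared with 9.72% to 34.1% in those of 2D cultures. The ratio of ileal-type to hepatocyte-type level was therefore 10.8 and 13.97 in iHLOs and 10.9 and 20.7 in iHEAs, 0.0735 to 0.106 in the 2D libraries, 0.746 and 0.770 in fibroblasts, 0.0240 and 0.0351 in fetal liver, and 0.0164 and 0.0166 in adult liver.

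With *Abcg5* and *Abcg8* counted as hepatocyte-type, the ratio was 1.17 on average in iHLOs and 1.58 in iHEAs, and with *Abcc3* counted as ileal-type it was 52.4 in 2D-iHs and 75.5 in 2D-iHEs, so that the size of the ratio and the side of 1 on which the 2D cultures lie depend on where the transporters of liver and gut are placed. The ileal-type sum of adult liver was above that of either 3D culture with TMM scaling, but with total counts it was 6.44 CPM per kilobase in both adult liver libraries and 5.10 and 6.66 in those of iHEAs, so that they overlapped. Of 9 enterocyte markers, 7 were above the floor in iHLOs and iHEAs, and their summed level was 177 to 209 CPM in 3D against 37.5 to 56.3 CPM in 2D and 277 to 284 CPM in adult liver, where 3 were above the floor. With total counts this sum was lower in adult liver (121 to 122 CPM) than in 3D (207 to 251 CPM). *Vil1*, a microvillus protein, alone gave 146 CPM in iHLOs and 158 CPM in iHEAs, while *Cdx2* was at 30.2 CPM in both 2D-iHs and iHLOs. *Fabp6*, the ileal bile acid-binding protein, and *Cdx1* were at the floor in all 4 culture conditions, and *Fgf15*, the ileal hormone induced by bile acids, had at most 2 counts in any library. Of 9 cholangiocyte markers, 9 were above the floor in 3D and 8 in 2D, where *Sctr* was at the floor, and their summed level was 1245 to 1554 CPM in 3D against 1088 to 1335 CPM in 2D. Fibroblasts also had 8 of them above the floor, at a summed level of 602 to 610 CPM. *Krt19* gave 45.8% to 69.4% of the sum in the culture conditions. The part of these markers in the ratio was not tested.

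**Figure D2:**
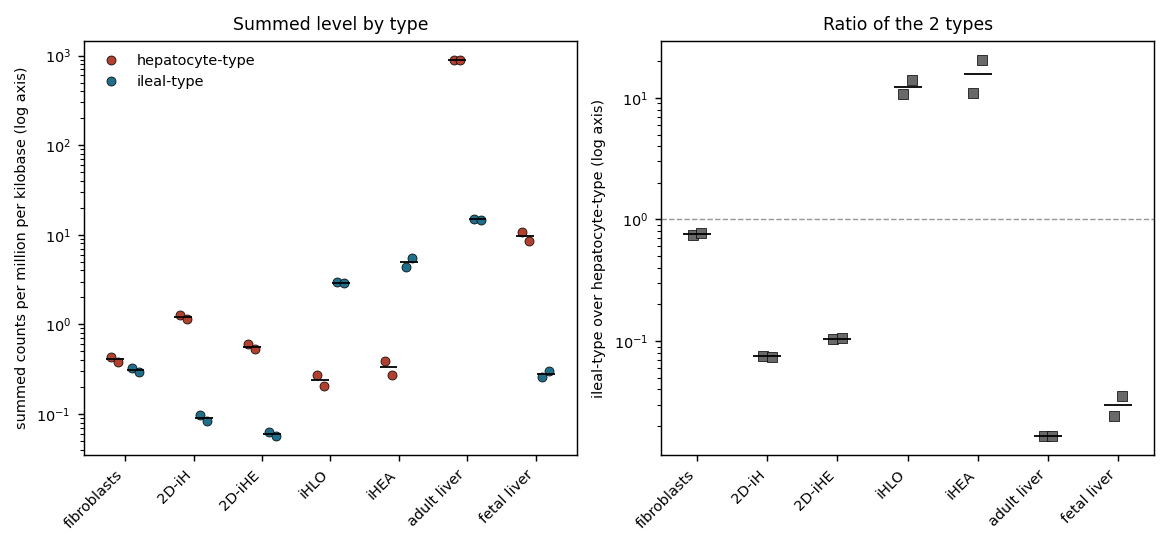
The left panel plots the summed level of 3 hepatocyte-type and 4 ileal-type transporters in CPM per kilobase of exon on a log axis, and the right panel their ratio on a log axis, with a dashed line at 1. Points are single libraries and black lines are means of 2 libraries per condition, and only the 4 libraries of iHLOs and iHEAs lie above 1, at 10.8 to 20.7, with *Abcc3* counted in neither sum (with *Abcc3* as ileal-type the 2D cultures also lie above 1).

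To examine the effect of 3D culture, the 4 libraries of iHLOs and iHEAs were compared with the 4 of 2D-iHs and 2D-iHEs. The test covered 13409 genes whose log2(count + 1) averaged 3 or more in these 8 libraries, and a gene was called at an adjusted p under 0.05 in edgeR's quasi-likelihood test with Benjamini-Hochberg adjustment. Of the 10 transporters 5 were tested, 4 of them were called higher in 3D and 1 lower, whereas 38.7% of all tested genes were called higher and 37.2% lower. *Slc10a2*, *Abcg5* and *Abcg8* passed the filter only through the 3D libraries and could be called only as higher, so their number says nothing about the transporters as a group.

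*Slc10a2* rose by a log2 fold change of 7.52 ± 0.43 (SE, adjusted p = 2.43e-08). The level of iHLOs was 92.4-fold that of 2D-iHs, and the level of iHEAs was at least 177-fold that of 2D-iHEs, which were at the floor. *Abcg5* rose at least 39.8-fold (adjusted p = 1.04e-07) and *Abcg8* at least 46.7-fold (adjusted p = 6.92e-09) from 2D libraries at the floor. *Abcc3* rose by 0.45 ± 0.13 on the log2 scale (adjusted p = 0.00650), from 299.6 ± 66.5 to 399 ± 22.3 CPM (n = 4), and *Abcc2* fell by 1.77 ± 0.35 on the log2 scale (adjusted p = 0.000737), from 5.94 ± 3.15 to 1.70 ± 0.310 CPM (n = 4). For all 5, the 4 libraries of 3D did not overlap the 4 of 2D, and each of the 5 kept its call with any library left out.

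The other 5 transporters were under the filter and were fitted with all listed genes added to the tested ones. *Slc51a* was higher in 3D (log2 fold change 2.89 ± 0.39, adjusted p = 3.88e-05) and so was *Slc51b* (adjusted p = 0.00203), which had 2 to 4 counts per 3D library and none in 2D, and both kept their calls with any library left out. In iHLOs against 2D-iHs and in iHEAs against 2D-iHEs, however, the call of *Slc51b* was lost without some single libraries. *Slco1a5* was called higher (2.78 ± 1.17, adjusted p = 0.0487), but without iHEA library 1 the log2 fold change was 0.03 (adjusted p = 0.960), and the call was also lost without any 1 of the 2D libraries (adjusted p = 0.0830 to 0.0974). *Slc10a1* was called lower (log2 fold change -1.02 ± 0.38, adjusted p = 0.0294) at 3 to 6 counts per 3D library and 5 to 13 per 2D library, and this call was lost without 2D-iH library 1, iHLO library 2 or either iHEA library (adjusted p = 0.0575 to 0.128). *Abcb11* was not called (-1.09 ± 0.75, adjusted p = 0.204), but without iHEA library 1 it was lower in 3D by a log2 fold change of -3.44 (adjusted p = 0.000223).

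Within the cultures without endothelial cells, iHLOs against 2D-iHs gave 4 tested transporters called higher and 1 lower, against 36.9% and 35.3% of all genes. *Abcc2* fell by 2.51 ± 0.17 on the log2 scale (adjusted p = 2.50e-08). *Abcc3* rose by 0.17 ± 0.06 (adjusted p = 0.0192), and this call was lost when any 1 of the 4 libraries was left out (adjusted p = 0.0539 to 0.122). Within the co-cultures, iHEAs against 2D-iHEs likewise gave 4 higher and 1 lower, against 36% and 34.9% of all genes. Here *Abcc2* fell by 0.72 ± 0.18 (adjusted p = 0.00333), a call lost without 2D-iHE library 1 (-0.56, adjusted p = 0.0540), and *Abcc3* rose by 0.79 ± 0.06 (adjusted p = 7.23e-08).

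**Figure D3:**
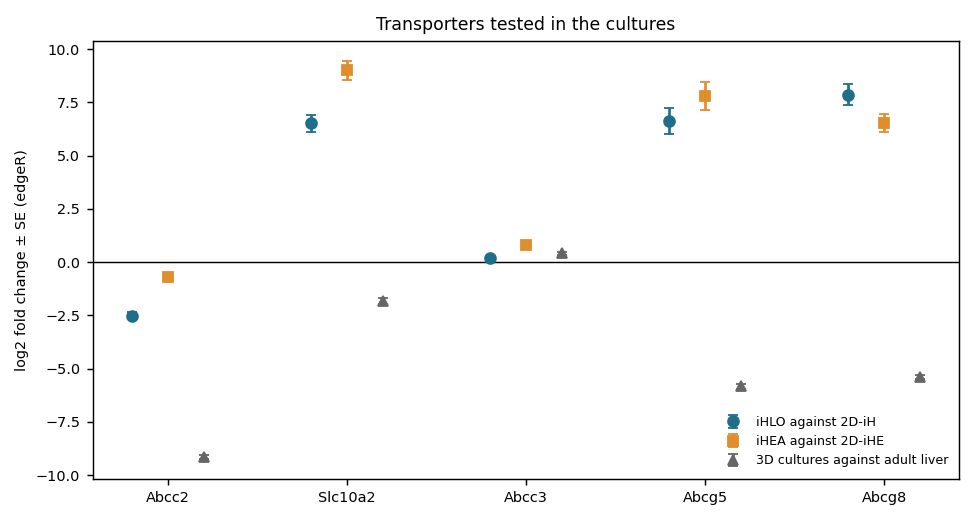
Log2 fold changes (y axis, edgeR) with bars of 1 SE are plotted for the 5 transporters tested in the cultures, for iHLOs against 2D-iHs, iHEAs against 2D-iHEs and the 3D cultures against adult liver. *Slc10a2*, *Abcg5* and *Abcg8* lie at fitted values of 6.51 to 9.01 in both comparisons with 2D and at -5.83 to -1.82 against adult liver, *Abcc2* is below 0 in all 3, and *Abcc3* is above 0 in all 3.

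Co-culture with endothelial cells had different effects on *Abcc2* and *Abcc3* in 2D and in 3D. In 2D-iHEs against 2D-iHs, 2 of the 5 tested transporters were called lower and none higher, against 3.92% and 4.26% of all genes (1096 genes called in all, and 250 to 426 with 1 library left out). *Abcc2* fell by 1.39 ± 0.15 on the log2 scale (adjusted p = 0.000181) and *Abcc3* by 0.55 ± 0.06 (adjusted p = 0.000156), with both 2D-iHE libraries below both 2D-iH libraries. In iHEAs against iHLOs, no transporter was called, at an unadjusted p under 0.05 in 1 of the 5 tested and against 1.19% of all genes called higher and 1.07% lower, whereas DESeq2 called 1 higher. These shares rest on 303 called genes, a number that ranged from 93 without iHLO library 1 to 723 without iHEA library 1 and was 881 with no filter on low counts. The log2 fold change was 0.40 ± 0.20 (adjusted p = 0.470) for *Abcc2* and 0.07 ± 0.06 (adjusted p = 0.729) for *Abcc3*.

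The difference between the co-culture effect in 3D and that in 2D was 1.79 ± 0.25 on the log2 scale for *Abcc2* (adjusted p = 0.00263) and 0.62 ± 0.08 for *Abcc3* (adjusted p = 0.00200). Thus 2 of the 5 tested transporters were called for a more positive effect in 3D and none for a more negative one, against 1.52% and 1.62% of all genes (421 genes called in all, and 129 to 959 with 1 library left out). Both calls were kept with any library left out, at 1.64 to 1.96 and 0.52 to 0.71 over all alternatives. The summed level of 5 mouse endothelial markers was 464 to 472 CPM in 2D-iHs, 406 to 419 CPM in 2D-iHEs, 1082 to 1218 CPM in iHLOs and 785 to 850.4 CPM in iHEAs, all 5 being above the floor in 2D-iHs and iHLOs, with *Pecam1* at the floor in 2D-iHEs and *Kdr* in iHEAs. *Cdh5* gave 94.0% of the sum in 2D-iHs and 96.1% in 2D-iHEs, and *Vwf* gave 61.8% in iHLOs and 53.5% in iHEAs. The part of the endothelial markers in the differences in co-culture effect was not tested, nor was that of human reads assigned to mouse genes.

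**Figure D4:**
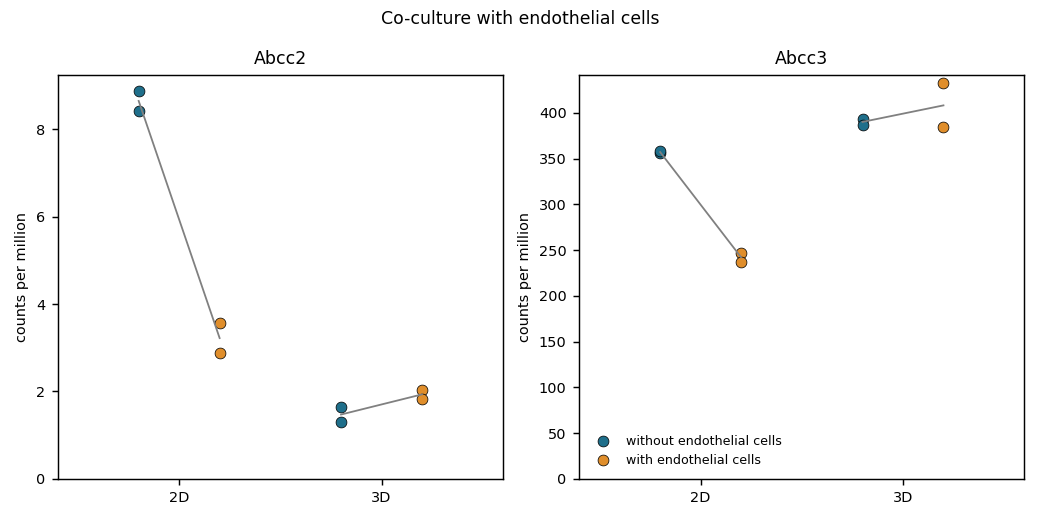
*Abcc2* (left) and *Abcc3* (right) in CPM (linear y axes from 0) are plotted for 2D and 3D libraries without (blue) and with (orange) endothelial cells, with points for single libraries and lines joining the means of 2 libraries. *Abcc2* falls from 8.65 to 3.22 CPM with endothelial cells in 2D and lies at 1.47 and 1.93 CPM in 3D.

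For iHEAs against iHLOs, *Slc10a2* had a log2 fold change of 0.74 ± 0.18 with both iHEA libraries above both iHLO libraries, but an adjusted p of 0.0616. With 1 library left out it ranged from 0.33 (adjusted p = 0.173) without the unnumbered library to 1.08 (adjusted p = 1.12e-06) without iHEA library 1, it was 0.29 (adjusted p = 0.437) with a replicate block in a fit that also leaves out the unnumbered library, and DESeq2 gave 0.75 (adjusted p = 0.0358). Over 13 settings it was called in 3. In the fit with listed genes added, *Slco1a5* had a log2 fold change of 3.55 ± 1.06 (adjusted p = 0.122), with -0.34 without iHEA library 1 and 4.45 without the unnumbered library. For *Abcb11* the value was 3.31 ± 1.15 (adjusted p = 0.202), and with 1 library left out it ranged from 0.21 (adjusted p = 0.967) without iHEA library 1 to 6.49 (adjusted p = 0.354) without iHLO library 2, being called only without the unnumbered library (4.14, adjusted p = 0.00131). *Abcg5* (0.44 ± 0.29, adjusted p = 0.635) and *Abcg8* (0.14 ± 0.21, adjusted p = 0.874) were not called.

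**Figure D5:**
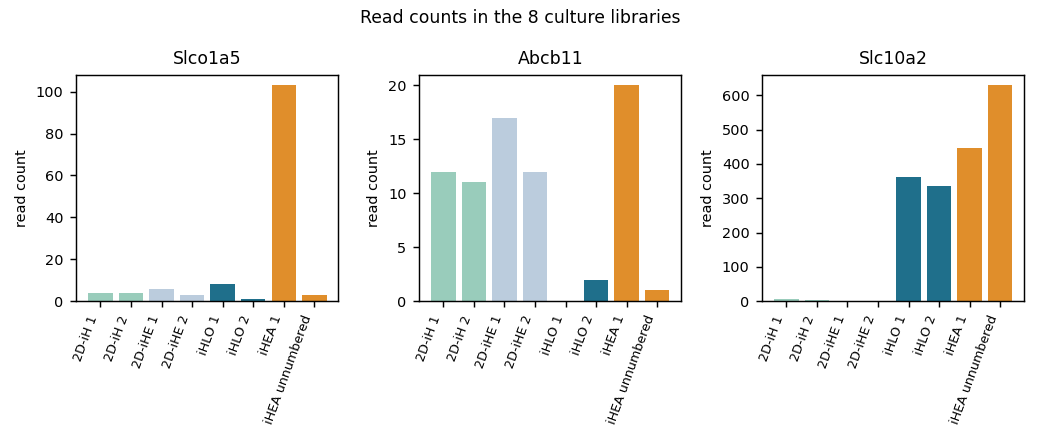
Bars from 0 give the read counts (y axes) of *Slco1a5*, *Abcb11* and *Slc10a2* in each of the 8 culture libraries, with 1 bar per library. *Slco1a5* has 103 counts in iHEA library 1 and at most 8 in any other culture library, *Abcb11* has 20 there and 1 in the unnumbered iHEA library, and *Slc10a2* has 447 and 629.

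The 3D cultures were then set against adult liver in a fit over all 14 libraries with 14121 tested genes, of which 8 were transporters. Of these, 1 was called higher in 3D and 6 lower, against 46.3% and 40.1% of all genes. *Slc10a1* was lower by a log2 fold change of -13.54 ± 0.13 (adjusted p = 4.56e-20), *Abcb11* by -13.01 ± 0.17 (adjusted p = 7.11e-19) and *Abcc2* by -9.15 ± 0.09 (adjusted p = 4.99e-20). *Abcb11*, at 0 to 20 counts in the 3D libraries, moved to as low as -14.56, without iHEA library 1, and lay close to that value without iHLO library 2, and it kept its call. The differences were smaller for *Abcg5* (-5.83 ± 0.12, adjusted p = 1.97e-16), *Abcg8* (-5.39 ± 0.08, adjusted p = 4.37e-18) and *Slc10a2* (-1.82 ± 0.15, adjusted p = 3.71e-08). Scaling by total counts, added after seeing the data, shifted the median of all genes by 1.45 in this comparison, called 74.9% of all genes higher in 3D and 18.5% lower, and left *Slc10a2* lower by only -0.37 (adjusted p = 0.0354), with iHEA and adult liver levels that overlapped. The other 5 transporters called lower kept their calls under it.

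*Abcc3* was higher in the 3D cultures than in adult liver by 0.41 ± 0.08 (adjusted p = 0.000120). Scaling by DESeq2 size factors shifted the median of all genes by -0.14 in this comparison, and *Abcc3* remained called under all alternatives, at 0.26 to 1.85, with the highest value under total counts. *Slc51a* did not differ detectably (0.07 ± 0.34, adjusted p = 0.865), its sign turned under DESeq2 size factors, and it was called higher in 3D under total counts (1.501, adjusted p = 0.000322). *Slc51b* was not tested here and had at most 4 counts in a 3D library against 37 and 38 in adult liver.

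In adult liver against fetal liver, 7 of the 8 tested transporters were called higher and none lower, against 40% and 43.8% of all genes. *Slc10a1* was higher by 10.35 ± 0.14 on the log2 scale (adjusted p = 8.04e-18, and 10.997 without fetal liver library 1), *Abcg5* by 8.42 ± 0.20 (adjusted p = 2.34e-15), *Abcg8* by 7.25 ± 0.13 (adjusted p = 7.72e-17) and *Abcb11* by 6.40 ± 0.13 (adjusted p = 4.64e-16). *Abcc3* (3.98 ± 0.10, adjusted p = 5.98e-15) and *Abcc2* (3.96 ± 0.08, adjusted p = 5.75e-16) rose by about the same amount. *Slc10a2* was at least 484-fold and *Slc51b* at least 26.0-fold higher in adult liver, since fetal liver was at the floor for both (at least 180-fold and 9.70-fold with total counts). *Slc51a* was not called (-0.75 ± 0.34, adjusted p = 0.0703), but it was called lower under total counts (-2.16, adjusted p = 1.35e-05). Summed erythroid markers were at 22831 to 24014 CPM in fetal liver and 505 to 553 CPM in adult liver, and their part in these differences was not tested. The median of all genes shifted by 0.11 with DESeq2 size factors and by -1.42 with total counts, under which 16.2% of all genes were called higher and 75.3% lower, and the 7 transporters called higher kept their calls.

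In 2D-iHs against fibroblasts, 3 of the 8 tested transporters were called higher and 2 lower, against 45.7% and 38.2% of all genes. *Abcc3* rose by 8.87 ± 0.15 on the log2 scale (adjusted p = 1.04e-16), and *Abcc2* rose at least 96.3-fold (adjusted p = 3.79e-12) from fibroblasts at the floor. *Abcb11* fell by 2.04 ± 0.45 (adjusted p = 0.000600). The call of *Slc10a2* (adjusted p = 0.0475, at 5 and 3 against 0 and 0 counts) was lost when any 1 of the 4 libraries was left out (adjusted p = 0.0643 to 0.135), and that of *Abcg8* (adjusted p = 0.0341) without fibroblast library 2 (adjusted p = 0.122) or 2D-iH library 2 (adjusted p = 0.167).

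Other genes of bile acid and sterol transport were examined by lists. Of 10 other hepatocyte bile acid transporters and partners, only *Ephx1* and *Abcc4* were tested in the cultures, and both fell in 3D against 2D, as did 37.2% of all genes. *Abcc4* (MRP4), a basolateral exporter like *Abcc3*, fell by 1.74 ± 0.06 on the log2 scale (adjusted p = 4.08e-10) but was higher in the 3D cultures than in adult liver (3.61 ± 0.08, adjusted p = 3.89e-16). The uptake carriers *Slco1b2*, *Slco1a1* and *Slco2b1* and the bile acid-activating ligase *Slc27a5* were at the floor in the 3D cultures, with adult liver at least 14927-fold higher for *Slco1b2* and at least 23031-fold higher for *Slc27a5* (at least 5472-fold and 8445-fold with total counts). This list gave 1 gene called higher and 4 lower in 3D than in adult liver among 5 tested, against 46.3% and 40.1% of all genes, and 2 and 3 with total counts, against 74.9% and 18.5%. Among them, *Slco1b2* and *Slc27a5* passed the filter of this fit through their adult liver counts and could be called only as lower. These numbers therefore say nothing about the list as a group.

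Of 8 canalicular lipid and drug pumps, 6 were tested and 1 rose and 4 fell in 3D against 2D, where 38.7% of all genes were called higher and 37.2% lower. The copper pump *Atp7b* rose by 3.80 ± 0.12 (adjusted p = 2.08e-10), whereas the multidrug exporters *Abcc1* (-2.10 ± 0.05, adjusted p = 1.77e-11), *Abcb1b* (-1.46 ± 0.10, adjusted p = 1.09e-07) and *Abcg2* (-1.42 ± 0.22, adjusted p = 9.73e-05) fell. *Abcb4*, the canalicular phospholipid flippase, had at most 6 counts in a culture library against 3650 and 4239 in adult liver. Against adult liver, 2 pumps of the 8 tested were higher in 3D and 6 lower, against 46.3% and 40.1% of all genes, and 4 and 4 with total counts.

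Of 10 genes of cellular sterol uptake and efflux, 9 were tested in the cultures, and 7 rose and 2 fell in 3D against 2D (38.7% and 37.2% of all genes). The cholesterol efflux pump *Abca1* rose by 6.20 ± 0.29 (adjusted p = 4.91e-09), from 3 to 20 counts per 2D library to 611 to 1020 per 3D library. *Npc1l1*, the sterol uptake protein of enterocytes, rose by 1.68 ± 0.22 (adjusted p = 2.29e-05) and had 0 counts in both adult liver libraries. The lipoprotein receptor *Scarb1* fell (-1.21 ± 0.10, adjusted p = 4.79e-07). In 3D against adult liver, 1 of 10 was higher and 9 lower (46.3% and 40.1% of all genes), and 3 and 7 with total counts.

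Of 20 sensing regulators, 15 were tested in the cultures, and 11 rose and 2 fell in 3D against 2D, compared with 38.7% and 37.2% of all genes. Of these, *Nr1i2*, the xenobiotic receptor, passed the filter only through the 3D libraries, and the 14 others gave 10 higher and 2 lower, or 1 lower with total counts. The liver X receptors *Nr1h3* (0.87 ± 0.22, adjusted p = 0.00414) and *Nr1h2* (0.56 ± 0.05, adjusted p = 1.63e-06), which act on *Abca1*, *Abcg5* and *Abcg8* in liver, rose, and so did *Gata4* (0.79 ± 0.06, adjusted p = 5.06e-07). *Nr1h3* was low, at 10 to 12 counts per 2D library and 15 to 20 per 3D library. The part of these regulators in the transporter levels was not tested. The bile acid receptor *Nr1h4* (FXR) had a log2 fold change of -0.38 ± 0.16 at an adjusted p of 0.0462, a call lost with total counts (-0.35, adjusted p = 0.0634), and *Hnf4a*, whose counts may include vector transcripts, was not called (-0.11 ± 0.08, adjusted p = 0.217). The intestinal regulator *Cdx2* was counted 472 to 1154 times in the culture libraries, 43 and 23 times in fetal liver and never in adult liver or fibroblasts. In 2D-iHEs against 2D-iHs, *Cdx2* fell by 0.54 ± 0.07 (adjusted p = 0.000680) and *Hnf4a* by 0.29 ± 0.05 (adjusted p = 0.00337), while *Rxra*, the partner of the bile acid and liver X receptors, rose by 0.24 ± 0.07 (adjusted p = 0.0390). The co-culture effect was more positive in 3D for *Cdx2* (0.77 ± 0.10, adjusted p = 0.00162) and *Hnf4a* (0.40 ± 0.07, adjusted p = 0.00893) and more negative for *Rxra* (-0.45 ± 0.09, adjusted p = 0.0177), which makes 2 higher and 1 lower among 15 tested (1.52% and 1.62% of all genes). In 3D against adult liver, 5 of 18 tested regulators were higher and 13 lower, compared with 46.3% and 40.1% of all genes, and 8 and 10 with total counts.

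Of 7 genes of ileal bile acid handling, only the members *Slc10a2* and *Abcc3* were tested in the cultures. Of 11 bile acid synthesis genes, 4 were tested in the cultures, and 2 were called higher in 3D against 2D and none lower, against 38.7% and 37.2% of all genes. These were the enzymes of the acidic pathway *Cyp27a1* (1.46 ± 0.04, adjusted p = 1.03e-10) and *Cyp7b1*, which was at 2 to 7 counts per 2D library and 9 to 32 per 3D library and passed the filter only through the latter. *Cyp7a1*, the rate-limiting enzyme of the classical pathway, had at most 1 count in any culture library, against 11642 and 11439 in adult liver. All 7 synthesis genes tested against adult liver were lower in 3D, as were 40.1% of all genes, and so were all 7 with total counts. Of these, *Slc27a5*, *Akr1d1* and *Baat* passed the filter of this fit through their adult liver counts and could be called only as lower. The number of calls therefore says nothing about the synthesis genes as a group. *Hsd3b7* was listed at 0 in all 14 libraries, adult liver included.

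The genes most like each transporter were ranked by Pearson's r of the mean log2(CPM + 0.5), with TMM scaling, over the 7 conditions, among 13940 genes with a mean of at least 1 CPM, as a description in which conditions share libraries and depth. *Slc10a1* was followed by *Il1b* and *Hsd3b3* (r = 1.00 each), and *Abcb11* by *Igfals* (0.998), *Ndrg2* (0.997) and *Fpr1* (0.996). *Abcc2* was followed by *Polr2l* (0.995), *Ndufv2* (0.994) and *Csnk2b* (0.994), genes with far narrower ranges. *Slc10a2* was closest to *Cyp2f2* (0.996), a cytochrome P450, to *Pigr* (0.995), the polymeric immunoglobulin receptor, and to *Egln2* (0.987). *Pigr* was at 323 CPM in iHLOs, 495 CPM in iHEAs and 2028 CPM in adult liver and at most at 0.529 CPM in the other conditions.

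*Abcc3* was closest to *Mndal* (0.999), *Cndp2* (0.998) and *Rbm47* (0.996). *Abcg5* was closest to *Cd74* (0.999), *Ptk6* (0.998) and *Ogfod2* (0.997), and *Abcg8* to *Cd74* (0.997), its partner *Abcg5* (0.996) and *Ogfod2* (0.996). *Slc51a* was followed by *Fam234b* (0.983), *Arfrp1* (0.981) and *Frat1* (0.975), *Slc51b* by *Mccc2* (0.999), *Cyp2b10* (0.999) and *4732419C18Rik* (0.999), and *Slco1a5*, with lower values, by *Aqp5* (0.873), *Cfap20* (0.861) and *Scara5* (0.849).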

How the data were processed

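Counts per gene of 14 RNA-seq libraries were analyzed. According to the paper's methods, the authors aligned 150 bp paired-end reads with HISAT2 to GRCm38, annotated them with Cufflinks and counted them with HTSeq, and the submitters' processing notes also name Trimmomatic 0.36 and mm10. Strand, the treatment of reads that fit several genes and the other versions are not given in the sources used here. The deposited values are raw counts per gene symbol, not yet equalized or log2-transformed as the methods describe. Groups follow the labels, which do not number 1 iHEA library.

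Tests used edgeR 4.0.16 in R 4.3.3 with TMM scaling and its quasi-likelihood test, adjusted after Benjamini and Hochberg over all genes whose log2(count + 1) averaged 3 or more in the libraries of the fit (the 8 culture libraries or all 14). The tests were also run on counts simulated from these libraries with far fewer changed genes than were called in 3D against 2D. No result rests on that run. 3D against 2D had 1 term for dimension, and the other fits 1 term per condition. CPM used TMM sizes over 14 libraries, and lengths and positions GENCODE vM21. Scripts used Python with pandas and numpy.

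The members and gene lists were chosen with earlier results of these data known. The 10 members, the genes of the lists and the 3 genes most like each member are named, apart from some that are not reported here. Alternatives were no filter, a filter of 5, the transporters added, DESeq2 1.42.0 size factors or its Wald test, a replicate block, another set of libraries, each library left out, total-count CPM, transcript length and type assignment. Adding all listed genes and testing with total-count scaling were chosen after seeing the data. Equally numbered libraries did not deviate together (r = -0.136 to 0.122), so no pairing was used.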

Additional observations from a re-analysis of the deposited data

Results flagged for a closer look

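*Slco1a5*, the organic anion uptake carrier, stood out in the 4 libraries of 3D culture because iHEA library 1 lay far from the others, at 3.05 CPM (103 counts). *Abcb11*, the bile salt pump, stood out for the same library, at 0.591 CPM (20 counts). In that library *Tat*, a tyrosine-degrading enzyme of mature hepatocytes, was counted 538 times against 62 in the unnumbered iHEA library, and *Acnat2*, a peroxisomal acyltransferase, 54 times against 3. Both genes were chosen after their values were seen, and what sets the libraries apart was not tested. Of 20 groups of 4 libraries examined, 2 held such a library, and chance gives about 1 in 20.

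*Abcc2* and *Abcc3* stood out because co-culture with endothelial cells had different effects in 3D and in 2D, with differences of 1.79 and 0.62 on the log2 scale in edgeR's quasi-likelihood test. Both pumps fell with co-culture in 2D and were not called in 3D.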

How the results depend on the processing

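Of the values recomputed under an alternative, 1093 kept their direction and side of the threshold or moved by less than the spread, 119 moved, 33 lost and 9 gained a call, and 22 turned sign, of which *Slco1a5* in iHEAs against 2D-iHEs had been called (log2 fold change 3.54, adjusted p = 0.00935 in edgeR's quasi-likelihood test, and -0.35 without iHEA library 1). Where the cause is not the setting's own construction, it was not tested. Without a filter on low counts, 7 transporters were called higher in 3D against 2D, 2 lower in iHLOs against 2D-iHs, 3 higher in iHEAs against iHLOs and 2 higher in 3D against adult liver, and all called genes numbered 881 in iHEAs against iHLOs (303 as reported) and 901 for the difference in co-culture effect (421 as reported). With a filter of 5, fewer transporters were tested: 2 were called higher in 3D against 2D, in iHLOs against 2D-iHs and in iHEAs against 2D-iHEs, 3 higher in adult against fetal liver, 2 lower in 3D against adult liver and 1 lower in 2D-iHs against fibroblasts. With the transporters added, 7 were called higher and 2 lower in 3D against 2D, 2 lower in iHLOs against 2D-iHs, 7 higher in iHEAs against 2D-iHEs and 4 lower in 2D-iHs against fibroblasts. DESeq2 called 1 higher in iHEAs against iHLOs and 1 lower in 2D-iHs against fibroblasts, and 1 fit over 14 libraries called 2 lower in 3D against 2D and in iHLOs against 2D-iHs.

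With the replicate number as a block (replicate block, without the unnumbered iHEA library), 2 transporters were called lower in iHLOs against 2D-iHs and 1 higher in iHEAs against iHLOs, and all called genes numbered 617 in iHEAs against iHLOs, 1945 in 2D-iHEs against 2D-iHs (1096 as reported) and 772 for the difference in co-culture effect. The log2 fold changes of *Abcc3* (-0.0306) and *Abcg5* (-0.11) in iHEAs against iHLOs turned sign under it. Leaving out 1 library gave 0 to 1 transporters lower in iHEAs against 2D-iHEs, 0 to 1 higher in iHEAs against iHLOs and 1 to 2 lower in 2D-iHs against fibroblasts, and all called genes ranged from 93 to 723 in iHEAs against iHLOs (93 without iHLO library 1, 723 without iHEA library 1), from 250 to 426 in 2D-iHEs against 2D-iHs (250 without 2D-iHE library 1) and from 129 to 959 for the difference in co-culture effect (129 without 2D-iHE library 1, 959 without iHEA library 1).

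Leaving out 1 library turned the sign of the log2 fold change in these ranges: *Abcc3* from -0.0261 to 0.16 in iHEAs against iHLOs, *Abcg5* from -3.13 to 2.34 and *Abcg8* from -2.20 to 3.69 in 2D-iHEs against 2D-iHs, *Abcg5* from -1.90 to 3.58 and *Abcg8* from -3.53 to 2.36 in the difference in co-culture effect, and *Slc10a1* from -0.75 to 0.71 in 2D-iHs against fibroblasts. With listed genes added, *Slco1a5* ranged from -1.75 to 1.07 in iHLOs against 2D-iHs, from -0.35 to 4.44 in iHEAs against 2D-iHEs and from -0.34 to 5.58 in iHEAs against iHLOs, *Abcb11* from -3.51 to 0.41 in iHEAs against 2D-iHEs, and *Slc10a1* from -0.86 to 0.0785 and *Slc51b* from -0.33 to 0.66 in iHEAs against iHLOs. *Slc51a* in 3D against adult liver ranged from -0.31 to 0.34 with a library left out, and was -0.0695 with DESeq2 size factors, -0.0773 in DESeq2 and -0.00495 with only the compared libraries.

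Counting *Abcc3* as ileal-type gave ratios of 1.08 in fibroblasts, 52.4 in 2D-iHs, 75.5 in 2D-iHEs, 303 in iHLOs, 243 in iHEAs, 0.0734 in adult liver and 0.370 in fetal liver, above 1 in every culture. Counting *Abcg5* and *Abcg8* as hepatocyte-type gave 0.649 in fibroblasts, 0.101 in 2D-iHEs, 1.17 in iHLOs, 1.58 in iHEAs and 0.0146 in adult liver. Scaling by total counts in place of TMM called 2 transporters higher in 3D against adult liver and 1 lower in adult against fetal liver, *Slc51a* in both cases, and 64.6% of the calls in 2D-iHEs against 2D-iHs were then higher (52.1% with TMM). With CPM from total counts, 34 of 70 levels moved by more than the spread, as for *Slc10a1* in adult liver (592 CPM against 1368) and *Abcb11* (375 against 865). With the longest transcript as length 24 of 70 moved, as for *Slc10a1* (782 CPM per kilobase against 622 in adult liver) and *Abcc3* (81.6 against 71.6 in iHEAs). Depth limits *Slc51b*, *Slco1a5*, *Slc10a1* and *Abcb11*, which had few counts in most culture libraries.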
